A study of Mus musculus with 18 samples.

Results

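Cone phototransduction genes were followed in RNA of the retinal pigment epithelium (RPE) of *rd1* mice. They are the 10 genes *Opn1sw*, *Opn1mw*, *Arr3*, *Gnat2*, *Gnb3*, *Gngt2*, *Pde6c*, *Pde6h*, *Cnga3* and *Cngb3*, chosen by name as parts of the cone light response, and make up 10 of the 47729 genes in the count table. All 10 passed the filter on low counts and were among the 18958 genes tested. Both groups were *rd1* mice, which carry a *Pde6b* mutation and lose their rods early, and both eyes of each of 9 mice were taken at P40. Control eyes were injected with an adeno-associated virus (AAV) carrying GFP under the Best1 promoter, which is active in the RPE. The fellow eye, called Best1-Nrf2, was given the same GFP virus together with AAV-Best1-Nrf2, which carries a human *Nrf2* cDNA. The vectors were thus aimed at the RPE and not at cones. In *rd1* retinas, with a different control virus, the study reported fewer craters in the cone layer after AAV-Best1-Nrf2. Those retinas are not part of these libraries. The retina was removed before RNA was taken from the eyecup, so any photoreceptor RNA in these 18 libraries came along with an RPE sample, and fewer cone cells or fragments cannot be told apart from less cone RNA per cell.

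In a cone, light converts an opsin pigment into a form that activates the G protein transducin. Transducin relieves the inhibition of phosphodiesterase 6, which hydrolyses cyclic GMP, and the cyclic nucleotide-gated channel in the outer segment closes. Cone arrestin then quenches the pigment. Each step uses a cone gene with a rod paralog, and the outer segments that hold these proteins face the RPE, which engulfs their shed tips.

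RNA of most cone pathway genes was lower in the eyecups of Best1-Nrf2 eyes. Of the 10 genes, 9 fell past the threshold in the paired edgeR test (adjusted p under 0.05) and 0 rose, where 1.13% of all genes tested were called lower and 3.12% higher. *Gnb3* was the gene that did not pass. The fitted log2 fold changes lay between -5.94 for *Opn1sw* and -1.45 for *Gnb3*, with a median of -3.26, against -0.025 over all genes tested. For 6 of the 10 genes the eye with Best1-Nrf2 was the lower one in 9 of 9 mice, which held for 1.22% of all genes. In 3 of them, *Arr3*, *Pde6c* and *Cnga3*, every Best1-Nrf2 eye lay below every control eye, as was the case for 0.116% of all genes.

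A pair of libraries stood apart. Best1-Nrf2 replicate 6 had the highest level of its group in 9 of the 10 genes, and control replicate 8 was the smallest library, with 18956748 counts against a highest total of 49598700. Replicate 6 also had the highest mean log2 CPM (log2 counts scaled to the library total, CPM, after TMM adjustment) of its group for 14 inner retina genes, 6.63 against 1.10 to 5.26 in the other Best1-Nrf2 eyes and 1.85 to 4.92 in control eyes. Control replicate 8 also had the lowest mean log2 CPM of 17 RPE markers, 8.01 against 9.23 to 9.96 in the other control eyes. No pair of libraries of a group was a duplicate. *Nfe2l2*, the mouse gene matching the delivered cDNA, exceeded its control value in all 9 mice, as the labels require. The 17 RPE markers examined were all detected, among them *Rpe65* at 2021 ± 846 CPM (SD, n = 9 control eyes).

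Without mice 6 and 8, a setting chosen after the values had been seen, all 10 cone genes were called lower, with a median log2 fold change of -3.77. The number of genes called lower over all genes also rose there, from 214 of 18958 to 366 of 18938. The summed level of the 10 genes ran from 298 to 2258 CPM in control eyes (median, 800.3) and from 54.1 to 132 CPM in the 8 Best1-Nrf2 eyes other than replicate 6, where it was 534 CPM.

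**Figure D1:**
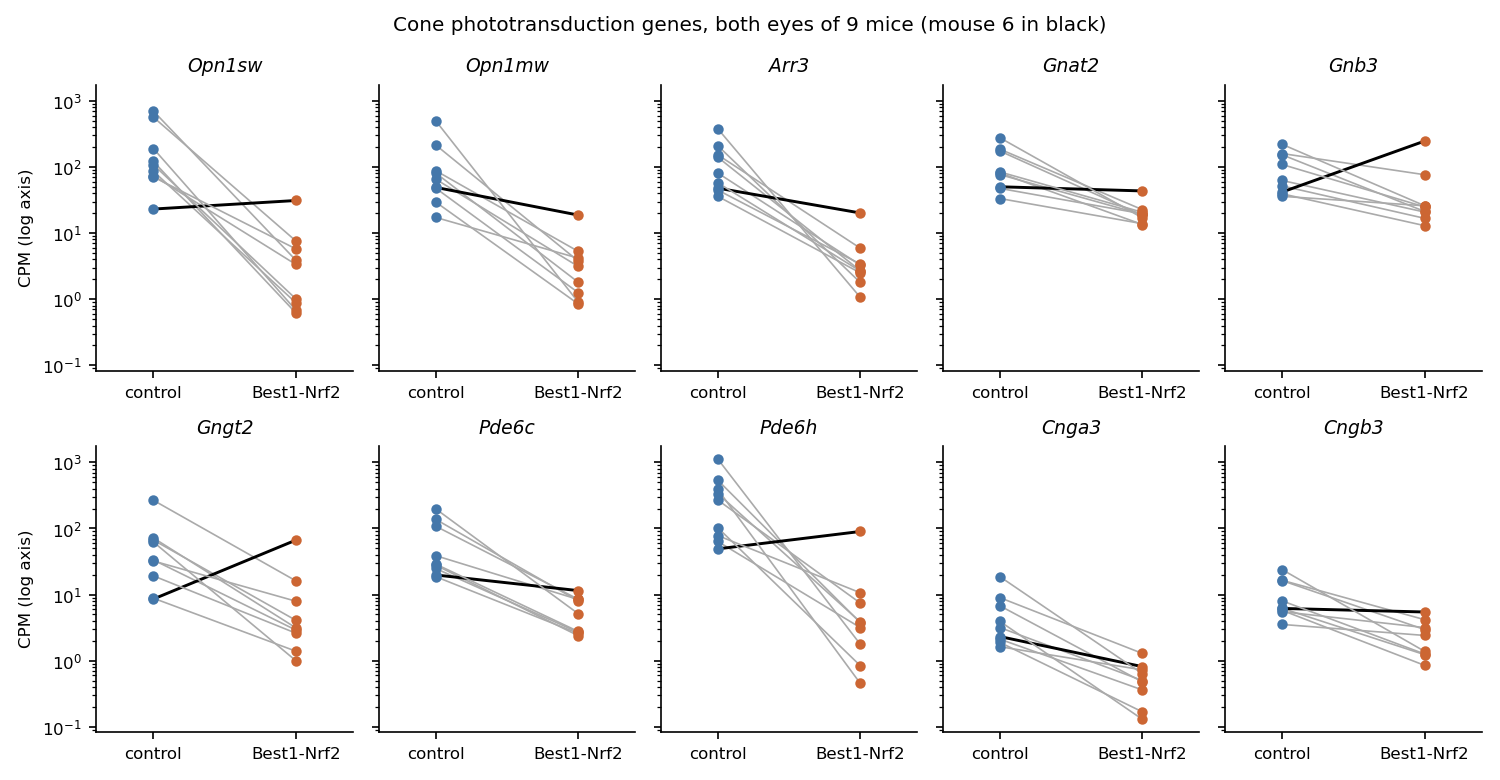
CPM on a log axis of each of the 10 cone phototransduction genes in the control eye (blue) and the Best1-Nrf2 eye (orange) of 9 mice, with a line joining the eyes of a mouse and mouse 6 in black. The lines fall in 9 of 9 mice for 6 genes, and in mouse 6 they rise for *Opn1sw*, *Gnb3*, *Gngt2* and *Pde6h*.

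The promoters are shown because the genes moved together and the photoreceptor homeodomain factor CRX, which acts on many of them, binds sites of the type TAATCC. Windows of 300 bases, from 250 before to 50 after a transcription start, were found in RefSeq (GRCm38.p6) for 6 of the 10 genes. Capitals mark the letters TAATC, the first part of that motif, on either strand (read as GATTA on the strand shown when the match is on the other one). The *Opn1sw* window is chr6:29380464-29380763 on the minus strand, that of *Opn1mw* is chrX:74127216-74127515 on the plus strand, that of *Arr3* is chrX:100605247-100605546 on the plus strand and that of *Gnat2* is chr3:108092816-108093115 on the plus strand.
Opn1sw: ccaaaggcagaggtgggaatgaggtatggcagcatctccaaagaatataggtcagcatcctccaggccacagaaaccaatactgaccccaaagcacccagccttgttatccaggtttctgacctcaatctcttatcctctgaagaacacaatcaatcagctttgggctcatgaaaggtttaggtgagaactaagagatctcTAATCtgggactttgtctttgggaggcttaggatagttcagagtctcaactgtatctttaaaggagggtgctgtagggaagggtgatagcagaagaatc
Opn1mw: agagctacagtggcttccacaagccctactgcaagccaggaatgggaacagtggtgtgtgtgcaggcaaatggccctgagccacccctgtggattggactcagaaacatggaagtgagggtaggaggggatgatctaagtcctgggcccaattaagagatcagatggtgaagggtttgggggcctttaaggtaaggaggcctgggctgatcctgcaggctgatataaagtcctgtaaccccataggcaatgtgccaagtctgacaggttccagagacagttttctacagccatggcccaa
Arr3: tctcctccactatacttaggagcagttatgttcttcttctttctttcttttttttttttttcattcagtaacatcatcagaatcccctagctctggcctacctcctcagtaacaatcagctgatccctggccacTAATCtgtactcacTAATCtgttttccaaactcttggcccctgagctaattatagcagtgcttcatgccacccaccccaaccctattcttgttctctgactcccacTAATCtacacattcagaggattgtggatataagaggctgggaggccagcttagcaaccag
Gnat2: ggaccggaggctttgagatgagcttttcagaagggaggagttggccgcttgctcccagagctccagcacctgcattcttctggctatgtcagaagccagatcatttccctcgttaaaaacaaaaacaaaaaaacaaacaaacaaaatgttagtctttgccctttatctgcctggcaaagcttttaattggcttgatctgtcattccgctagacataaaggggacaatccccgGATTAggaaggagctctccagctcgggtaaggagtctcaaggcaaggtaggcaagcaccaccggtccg

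The full TAATCC motif was present in 1 of these 6 genes, *Gnat2*, and in 8.1% of the 27025 genes with a window. TAATC occurred once in *Opn1sw*, once in *Gnat2*, where it is part of the full motif, and 3 times in *Arr3*. Of all 32851 windows, 22% held it at least once and 0.7% at least 3 times, against 3 of the 7 windows of these genes for at least once. The windows of *Opn1mw*, *Pde6h* and *Cnga3* held none. These are matches of letters, and the shorter form was searched after the windows had been seen.

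Both opsins fell. *Opn1sw*, which encodes the short-wavelength pigment (ENSMUSG00000058831, GRCm38 chromosome 6, 29376671–29388468, minus strand), ranged from 23.1 to 699.9 CPM in control eyes with a median of 108 CPM. In Best1-Nrf2 eyes it ranged from 0.617 to 31.1 CPM with a median of 3.35 CPM. The groups overlapped through mouse 6 alone, which had the lowest control eye and the highest Best1-Nrf2 eye. The log2 fold change was -5.94 (SE 0.90, edgeR adjusted p = 0.00202), and the gene was lower in 8 of 9 mice. *Opn1sw* overlaps *Calu* on the other strand, which had a log2 fold change of 0.09 (adjusted p = 0.949 with edgeR). *Opn1sw* also shares 14% of its 31-base words with other genes, and the part of these in its values was not tested.

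*Opn1mw*, the middle-wavelength opsin (ENSMUSG00000031394, chromosome X, 74127464–74150760, plus strand), ranged from 17.3 to 502 CPM in control eyes (median, 65.5) and from 0.850 to 18.7 CPM in Best1-Nrf2 eyes (median, 3.14). Control replicate 8 and Best1-Nrf2 replicate 6 were the eyes that overlapped. The gene was lower in 9 of 9 mice, with a log2 fold change of -4.68 (SE 0.71, edgeR adjusted p = 0.00214).

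*Arr3*, cone arrestin (ENSMUSG00000060890, chromosome X, 100605497–100618493, plus strand), gave the clearest separation of the abundant genes. Its level was 36.0 to 379 CPM in control eyes (median, 81.0) and 1.07 to 20.1 CPM in Best1-Nrf2 eyes (median, 2.70). No eye of a group reached the range of the other. Its log2 fold change was -4.80 (SE 0.66, edgeR adjusted p = 9.82e-04, lower in 9 of 9 mice). *Arr3* shared no 31-base word with another annotated gene.

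Of the 3 transducin genes, *Gnat2* and *Gngt2* fell and *Gnb3* did not pass. *Gnat2*, the alpha subunit that carries the signal to the phosphodiesterase (ENSMUSG00000009108, chromosome 3, 108092789–108101432, plus strand), ranged from 33.3 to 276 CPM in control eyes (median, 80.9) and from 13.5 to 43.4 CPM in Best1-Nrf2 eyes (median, 19.1). Again, only Best1-Nrf2 replicate 6 lay inside the control range. *Gnat2* fell in 9 of 9 mice, with a log2 fold change of -2.19 (SE 0.36, edgeR adjusted p = 0.00378).

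*Gnb3*, the cone beta subunit (ENSMUSG00000023439, chromosome 6, 124834240–124840275, minus strand), ranged from 35.9 to 220.02 CPM in control eyes (median, 62.4) and from 12.9 to 246 CPM in Best1-Nrf2 eyes (median, 24.9). The highest of all 18 values was that of Best1-Nrf2 replicate 6. The next of that group, replicate 2, had 76.3 CPM and lay inside the control range, while the remaining 7 eyes were below every control eye. The log2 fold change of -1.45 (SE 0.48) did not pass in edgeR (adjusted p = 0.156), although the gene was lower in 8 of 9 mice. Without mouse 6 it was -1.80 (adjusted p = 0.00246), and with all mice it passed in DESeq2 (-1.46, adjusted p = 0.0094) and in limma voom (-1.82, adjusted p = 0.00578). Without the pairing of eyes it was -0.89 (edgeR adjusted p = 0.67), and with any of the other mice left out it did not pass (adjusted p from 0.184 to 0.34).

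*Gnb3* is known to be expressed by ON bipolar cells of the inner retina as well as by cones. Replicates 6 and 2 had the highest inner retina means of the Best1-Nrf2 eyes (6.63 and 5.26). In replicate 6, *Pcp2*, a bipolar cell marker, was at 608 CPM and *Grm6*, the glutamate receptor of ON bipolar cells, at 78.8 CPM. Not every gene of that list was high there, as *Trpm1*, the channel of ON bipolar cells, was at 184 CPM, the lowest of the Best1-Nrf2 eyes, and *Slc6a9*, a glycine transporter, at 66.2 CPM against a group mean of 209.6. Of the 17 inner retina genes fixed as a list, 14 were tested and 0 passed in either direction in edgeR (1 at an unadjusted p under 0.05; 1 called by DESeq2, 0 by voom). Their median log2 fold change was -0.01. The part of these cells in the *Gnb3* values was not tested.

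*Gngt2*, the cone gamma subunit (ENSMUSG00000038811, chromosome 11, 95837216–95845734, plus strand), ranged from 8.56 to 267 CPM in control eyes (median, 33.4) and from 0.998 to 66.7 CPM in Best1-Nrf2 eyes (median, 3.14). Mouse 6 held both the lowest control and the highest Best1-Nrf2 value, and Best1-Nrf2 replicate 3 (16.1 CPM) also lay inside the control range. The log2 fold change was -3.27 (SE 0.73, edgeR adjusted p = 0.0229, lower in 8 of 9 mice). This was the least stable call of the 9. Leaving out any of mice 1, 2, 3, 5, 7 and 9 gave an adjusted p between 0.0512 and 0.0713, whereas without mouse 6 it was 2.04e-04. Without the pairing of eyes the value was -2.43 (adjusted p = 0.15). *Abi3*, a gene on the other strand that overlaps *Gngt2*, had a log2 fold change of 0.18 (adjusted p = 0.919).

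**Figure D2:**
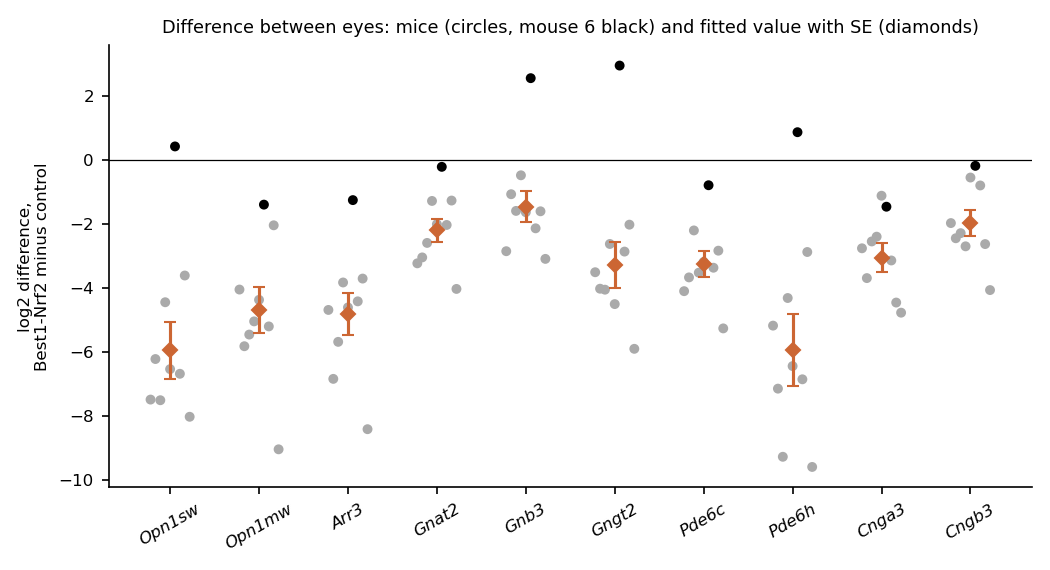
Difference in log2 CPM between the Best1-Nrf2 and the control eye of each of 9 mice (circles; mouse 6 in black) and the fitted log2 fold change with its SE (orange diamonds) for the 10 genes. Mouse 6 has the smallest fall, or a rise, in 9 of the 10 genes, and mouse 9 has the largest fall in every one.

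Both phosphodiesterase genes fell. *Pde6c*, the catalytic subunit (ENSMUSG00000024992, chromosome 19, 38132781–38183958, plus strand), ranged from 18.7 to 199 CPM in control eyes (median, 29.0) and from 2.40 to 11.5 CPM in Best1-Nrf2 eyes (median, 5.15). The ranges did not meet. Its log2 fold change was -3.25 (SE 0.39), with the lowest adjusted p of the 10 genes in edgeR (4.29e-04, lower in 9 of 9 mice).

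*Pde6h*, the inhibitory gamma subunit (ENSMUSG00000064330, chromosome 6, 136923832–136968865, plus strand), had the widest range of the set in Best1-Nrf2 eyes. Control values ranged from 49.1 to 1122 CPM (median, 269). Best1-Nrf2 values ranged from 0.454 to 90.005 CPM (median, 3.77), a 198-fold range in which replicate 6 was the highest and replicate 8, at 10.7 CPM, the next. The log2 fold change of -5.93 had the largest error of the set (SE 1.11, edgeR adjusted p = 0.00841, lower in 8 of 9 mice). The overlapping *Arhgdib* on the other strand had a log2 fold change of -0.24 (edgeR adjusted p = 0.882).

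The channel subunits had the lowest median levels per kilobase in control eyes. *Cnga3*, the cyclic GMP-binding alpha subunit that can form a channel alone (ENSMUSG00000026114, chromosome 1, 37214434–37263384, plus strand), ranged from 1.63 to 18.6 CPM in control eyes (median, 3.17) and from 0.129 to 1.29 CPM in Best1-Nrf2 eyes (median, 0.501). The groups did not overlap, but the lowest Best1-Nrf2 library held only 4 counts. Its log2 fold change was -3.04 (SE 0.45, edgeR adjusted p = 0.00175, lower in 9 of 9 mice). *Cngb3*, the modulatory beta subunit (ENSMUSG00000056494, chromosome 4, 19280850–19510623, plus strand), ranged from 3.53 to 23.9 CPM in control eyes (median, 6.19) and from 0.850 to 5.45 CPM in Best1-Nrf2 eyes (median, 2.41). Best1-Nrf2 replicates 1 and 6 lay within the control range. It fell in 9 of 9 mice, with a log2 fold change of -1.98 (SE 0.41, edgeR adjusted p = 0.0152).

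The control eyes themselves differed widely. The highest control value exceeded the lowest by 6.12-fold for *Gnb3*, 10.5-fold for *Arr3*, 30.3-fold for *Opn1sw* and 31.2-fold for *Gngt2*. The median SD of log2 CPM over the 9 control eyes was 1.23 for the 10 genes, against 0.69 for all genes tested and 0.57 for the 11809 genes whose log2 CPM averaged 2 or more. In Best1-Nrf2 eyes the median SD was 1.24 for the 10 genes and 0.72 for all genes. Control replicate 9 was the highest control eye for 7 of the 10 genes. *Opn1sw* was highest in control replicate 1, and *Gngt2* and *Pde6h* in control replicate 3.

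Much of this spread was common to the set. When the mean of the other 9 genes in the same eye was subtracted, the SD over control eyes became smaller for 10 of the 10 genes, with a median of 0.73. *Arr3* followed the others most closely (SD 0.26 in place of 1.16, Pearson r = 0.98 with the mean of the others over 9 control eyes). *Gngt2* followed them least (SD 1.35 in place of 1.58, r = 0.54). In Best1-Nrf2 eyes the SD became smaller for 7 of the 10 genes, with a median of 0.90. These are descriptions over 9 eyes that share a dissection and an amplification protocol.

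By the rule set for likeness, the genes with control values most like the mean of the 10 were *Rcvrn* (r = 0.99 over 9 control eyes), *Cabp4*, *Rtbdn*, *Sag*, *Cplx4*, *Tpgs2*, *Nxnl1*, *Aipl1*, *Rab39b* and *Ubap1l*, out of 11833 genes ranked. The last of them had r = 0.93. *Rcvrn* encodes the photoreceptor calcium sensor recoverin, and *Sag* encodes rod arrestin. Only genes whose log2 CPM averaged 2 or more over control eyes were ranked. In the comparison between eyes, 7 of these 10 passed as lower, where 1.13% of all genes tested did. As the list was drawn from the control eyes of the same data, this count is a description only. *Tpgs2* (log2 fold change, 0.01, edgeR adjusted p = 0.990) and *Rab39b* (0.24, adjusted p = 0.791) followed the cone genes across control eyes but were not called between the eyes, nor was *Ubap1l* (-1.87, adjusted p = 0.092).

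The make-up of the cone signal also differed from eye to eye. *Opn1sw* supplied 40.4% of the summed CPM of the 10 genes in control replicate 1, 27.3% in control replicate 2 and 8.40% in control replicate 9. *Pde6h* supplied 58.4% in control replicate 3 and 42.2% in control replicate 5, and 15.5% to 25.9% in the other control eyes. These shares are of CPM with no correction for length, so each gene is compared with itself across eyes. The share of *Gnb3* ran from 3.25% to 19.3% in control eyes and from 20.7% to 57.9% in Best1-Nrf2 eyes, with no overlap. The share of *Gnat2* ran from 4.21% to 16.8% in control eyes and from 17.1% to 34.4% in the Best1-Nrf2 eyes other than replicate 6, where it was 8.12%.

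**Figure D3:**
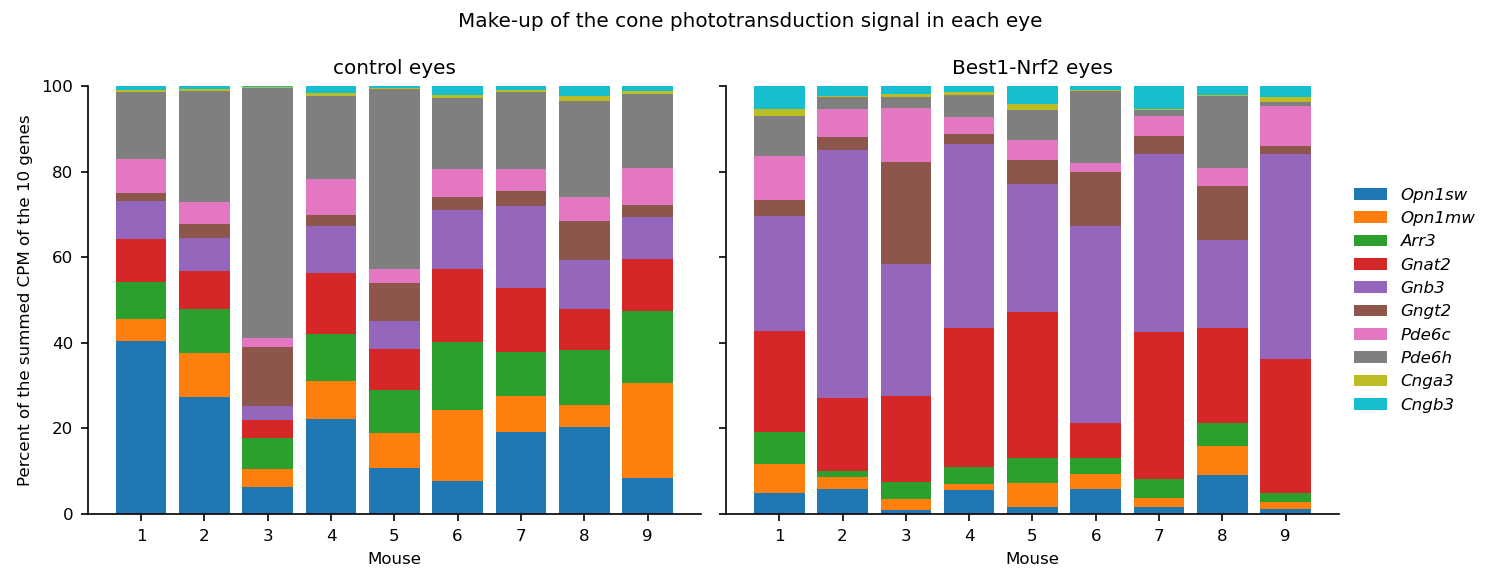
Percent of the summed CPM of the 10 cone genes contributed by each gene, as stacked bars for the control eye (left) and the Best1-Nrf2 eye (right) of each of 9 mice. *Pde6h* takes 58.4% in control replicate 3 and 42.2% in control replicate 5, and the share of *Gnb3* is larger in every Best1-Nrf2 eye (20.7% to 57.9%) than in any control eye (3.25% to 19.3%).

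The proportion of the opsins varied among control eyes. The log2 ratio of *Opn1sw* to *Opn1mw* was 2.99 in control replicate 1, 2.03 in replicate 8, 1.39 in replicate 2, 1.32 in replicate 4, 1.17 in replicate 7, 0.57 in replicate 3, 0.39 in replicate 5, -1.09 in replicate 6 and -1.40 in replicate 9. The range was 21-fold, with replicate 1 at one end and replicates 6 and 9 at the other. These are ratios of CPM with no correction for length, so their variation between eyes can be read but not their sign. In the mouse retina these opsins have opposing dorsal and ventral gradients, and the position of the tissue in the eye was not recorded in the labels. In Best1-Nrf2 eyes the ratio ran from -1.77 to 1.91. The mean difference between eyes was -0.85 (95% interval, -2.17 to 0.47; lower in 6 of 9 mice). It did not pass (exact sign-flip permutation test, p = 0.164, adjusted p = 0.230 over 6 ratios). With a mouse left out it ran from -1.19 without mouse 6 to -0.53 without mouse 1.

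Members that belong to one complex were compared as ratios within an eye. The ratio of *Gnat2* to *Gnb3* was lower with Best1-Nrf2 in 7 of 9 mice, with a log2 difference of -0.87 (95% interval, -1.62 to -0.11; exact permutation adjusted p = 0.0547). *Pde6h* relative to *Pde6c* differed by -2.43 (95% interval, -4.44 to -0.41; exact permutation adjusted p = 0.0547; lower in 8 of 9 mice). *Cngb3* relative to *Cnga3* differed by 0.97 (95% interval, 0.35 to 1.59; exact permutation adjusted p = 0.0547; higher in 8 of 9 mice). None of the 6 ratios passed after adjustment, although 3 had an unadjusted p between 0.0117 and 0.0273.

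The remaining ratios had wide intervals or lay near 0. *Gnat2* relative to *Gngt2* differed by 0.76 (95% interval, -0.48 to 2.00; exact permutation adjusted p = 0.230). *Arr3* relative to *Opn1mw* differed by -0.11 (95% interval, -0.82 to 0.59; exact permutation adjusted p = 0.719). Without mouse 6, *Pde6h* relative to *Pde6c* (-2.94) and *Gnat2* relative to *Gngt2* (1.25) passed, each with an adjusted p of 0.0234 in the exact permutation test, as did *Cngb3* relative to *Cnga3* (0.93, exact permutation adjusted p = 0.0469). The last ratio also passed without mouse 4 (1.13, exact permutation adjusted p = 0.0469).

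The shares of *Pde6h* and *Gngt2* were set beside a property of the whole library. The median log2 deviation of genes with under 1000 exon bases minus that of genes with over 4000 was 1.69 in control replicate 3 and 1.36 in control replicate 5, and -1.09 to 0.27 in the other control eyes. By exon bases *Pde6h* (7846) belongs to the long genes of this measure, and *Gngt2* (1877) to neither class. Those control eyes had the highest *Pde6h* shares, and *Gngt2* supplied 13.9% and 8.98% there, against 9.31% in control replicate 8 and 1.93% to 3.40% in the other control eyes. Among Best1-Nrf2 eyes the measure was highest in replicates 3, 8 and 6 (1.44, 1.30 and 1.12), where *Gngt2* supplied 23.9%, 12.6% and 12.5% and at most 5.60% in the other Best1-Nrf2 eyes. *Pde6h* did not follow the measure there in the same way, with 2.63% in replicate 3, 17% in replicate 8 and 16.8% in replicate 6, and 0.838% to 9.45% in the other Best1-Nrf2 eyes. With this measure as a covariate in the edgeR fit, added after seeing the data, the log2 fold change was -5.54 for *Pde6h* (adjusted p = 0.00144) and -2.99 for *Gngt2* (adjusted p = 0.00588), and 9 of the 10 genes were called.

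**Figure D4:**
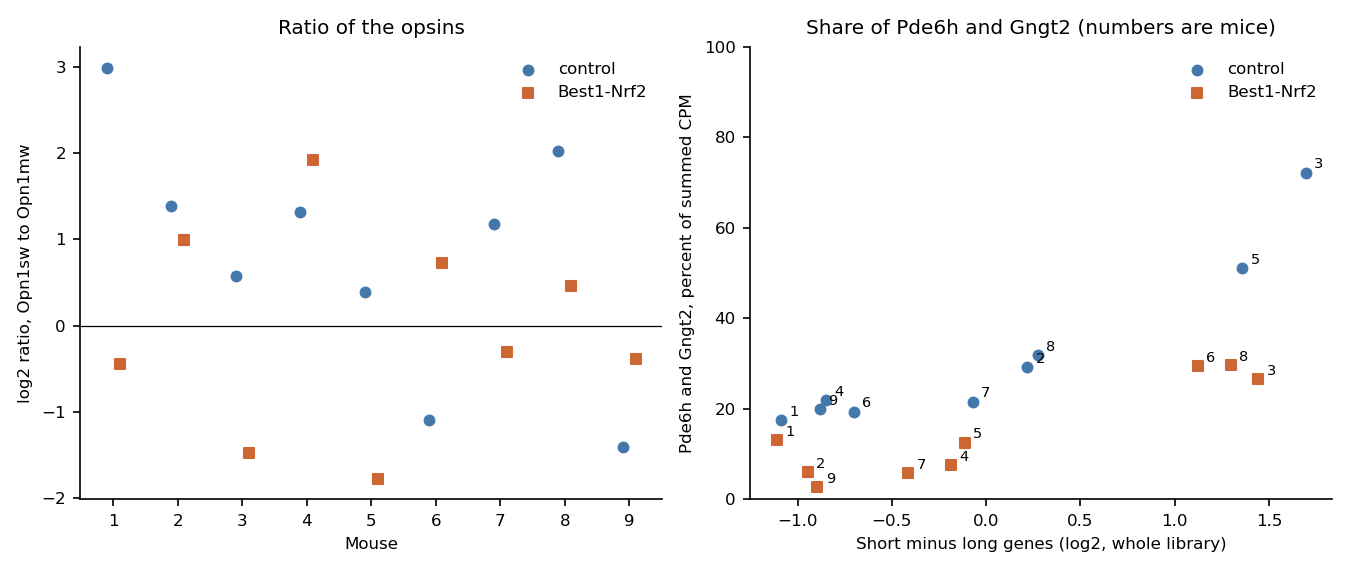
Left, the log2 ratio of *Opn1sw* to *Opn1mw* in the control (blue circles) and Best1-Nrf2 (orange squares) eye of each of 9 mice. Right, the summed share of *Pde6h* and *Gngt2* among the 10 genes in percent against the log2 difference between short and long genes in each library, with the mouse number beside each point; control replicates 3 and 5 lie at the upper right, with measures of 1.69 and 1.36.

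The order of the genes was taken per kilobase. By control median, and dividing by the exon union length, the order was *Opn1sw* (42.3 CPM per kb), *Opn1mw* (42.0), *Arr3* (34.4), *Pde6h* (34.3), *Gnat2* (27.03), *Gnb3* (23.7), *Gngt2* (17.8), *Pde6c* (9.75), *Cngb3* (1.32) and *Cnga3* (0.80). Ranges over control eyes overlapped for every pair of neighbours in this order but *Pde6c* and *Cngb3*. In Best1-Nrf2 eyes *Gnb3* (9.45 CPM per kb) and *Gnat2* (6.38) came first and *Cnga3* (0.127) last. The order depended on the length used. With the length of the principal transcript, the control medians put *Arr3* first (59.6 CPM per kb), then *Opn1mw* (53.4), *Pde6h* (45.3) and *Opn1sw* (44.9), and the other genes kept their places. Annotated transcripts of *Pde6h* run from 211 to 5940 bases, and which of them was expressed was not tested.

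Rod counterparts gave a comparison within the same eyes. At this age *rd1* rods are lost. *Gnat1*, *Pde6a*, *Pde6b*, *Cnga1* and *Cngb1* had control means under 5 CPM, and none of these passed. *Sag* (164 to 6.53 CPM), *Gngt1* (68.5 to 10.2 CPM) and *Pde6g* (68.4 to 5.44 CPM) fell with the cone genes. Thus 3 of 10 rod genes were lower and 0 higher, where 1.13% of all genes tested were lower. The median log2 fold change of the rod list was -0.79.

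The difference between a cone gene and its rod counterpart was then tested for 8 pairs, of which 7 are given here, and 6 of those 7 passed. *Pde6c* fell more than *Pde6a* by -2.51 on the log2 scale (95% interval, -3.26 to -1.75; exact sign-flip permutation adjusted p = 0.0156; 9 of 9 mice). Larger falls of the cone gene were also found for *Cnga3* against *Cnga1* (-2.43), *Cngb3* against *Cngb1* (-2.21), *Gnat2* against *Gnat1* (-1.99) and *Pde6h* against *Pde6g* (-1.11), with exact permutation adjusted p from 0.0156 to 0.0208. Of the rod partners in these pairs, only *Pde6g* had a control mean above 5 CPM.

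*Gngt2* went the other way and fell less than *Gngt1*, by 1.05 (95% interval, 0.27 to 1.83; exact sign-flip permutation adjusted p = 0.0156; ratio higher in 9 of 9 mice). *Arr3* and *Sag* differed by 0.03 (95% interval, -0.66 to 0.72; exact permutation adjusted p = 0.934).

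**Figure D5:**
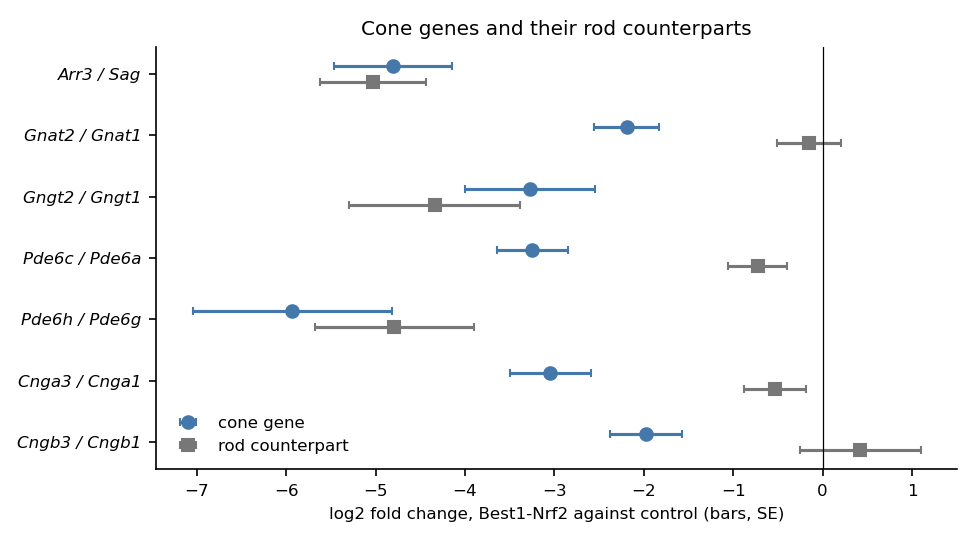
Fitted log2 fold change (Best1-Nrf2 against control, 9 mice) with its SE for 7 cone genes (blue circles) and their rod counterparts (grey squares). *Sag*, *Gngt1* and *Pde6g* lie with the cone genes, whereas *Gnat1*, *Pde6a*, *Cnga1* and *Cngb1* lie between -0.72 and 0.42.

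Of 14 other genes of the photoreceptor light response, 6 fell and 0 rose in edgeR, where 1.13% of all genes tested fell. Their median log2 fold change was -1.61, and 9 passed in DESeq2 and in voom. Those that fell in edgeR were *Rcvrn* (-4.83), *Pdc* (-5.55), which encodes phosducin, *Aipl1* (-4.79), a chaperone of phosphodiesterase 6, *Guca1a* (-2.22), a guanylate cyclase activator, *Grk1* (-1.57), a kinase of visual pigments, and *Slc24a1* (-1.07), an ion exchanger. *Guca1b* (-0.10), *Rgs9* (-0.12), *Gnb5* (0.01) and *Unc119* (-0.19) did not pass and had values near 0 (adjusted p from 0.854 to 0.992 in edgeR). *Slc24a2* (-4.95, edgeR adjusted p = 0.0619), *Gucy2f* (-1.66, adjusted p = 0.123) and *Rgs9bp* (-2.05, adjusted p = 0.239) had lower values but did not pass either.

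Of 5 genes of cone identity, *Kcne2* (-2.29, edgeR adjusted p = 0.0128) passed in edgeR, and 2 passed in DESeq2 and in voom, while *Thrb* (-0.31), the thyroid hormone receptor needed for the middle-wavelength opsin, and *Rxrg* (0.06), its partner, did not pass in edgeR. Of 10 tested genes of photoreceptor fate and structure, 6 fell, among them *Crx* (-3.38, edgeR adjusted p = 0.0258) and *Prph2* (-4.65, adjusted p = 0.0301), and *Rom1* rose (1.53, adjusted p = 0.00309). Over all genes tested, 1.13% fell and 3.12% rose.

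Markers of other cells in the eyecup moved as well. Of 17 RPE genes, 5 fell (*Rpe65*, *Lrat*, *Rdh5*, *Rgr* and *Rlbp1*) and 0 rose in edgeR, where 1.13% of all genes tested fell. *Rpe65*, the visual cycle isomerase, was at -2.81 (edgeR adjusted p = 2.41e-04). In DESeq2 8 of the 17 passed, and 9 in voom. The median log2 fold change of the list was -0.42. *Best1*, a chloride channel gene (0.97, edgeR adjusted p = 0.0555), and *Tyr*, the pigment enzyme tyrosinase (0.78, adjusted p = 0.19), had higher values but did not pass. The mean log2 CPM of the list ran from 8.01 to 9.96 in control eyes and from 8.5 to 9.38 in Best1-Nrf2 eyes. The lowest control value was that of replicate 8, and the other control eyes lay between 9.23 and 9.96. This mean was lower with Best1-Nrf2 in 8 of 9 mice. Of 11 microglia and macrophage genes, 7 rose and 0 fell in edgeR, where 3.12% of all genes tested rose, with list means between 3.00 and 3.82 among controls and between 3.32 and 5.37 with Best1-Nrf2. *Csf1r*, a macrophage growth factor receptor, had a lower value (-0.97) but did not pass (edgeR adjusted p = 0.113). Of 7 Müller glia genes, 0 passed in edgeR (0 at an unadjusted p under 0.05; 1 called by DESeq2, 0 by voom), and of 5 endothelial genes 0 passed in edgeR, at an unadjusted p under 0.05, in DESeq2 or in voom. The part of these cells in the cone gene values was not tested.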

How the data were processed

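RNA of the RPE from both eyes of 9 *rd1* mice at P40 was analysed, 18 libraries in all. The study's methods state fewer pairs for this comparison than were deposited, and which pairs those were is not given in the sources used here, so all 9 were analysed. Per the labels, a low-input kit was used to amplify poly(A) RNA, and the libraries were sequenced in separate runs that are not assigned to samples. The authors aligned reads to mm10 with STAR and estimated levels with Salmon 0.8.1 (the version is from the submitters' processing notes). Expected counts for each Ensembl gene, whole numbers without scaling, make up the deposited table. The counter is not named in it, so that the unit was inferred from the values. Symbols were matched for 47224 of 47729 IDs. Coordinates are from GENCODE M21 on GRCm38.

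The cone genes and all lists were chosen with earlier results of these data known. Genes were filtered with filterByExpr, scaled by TMM and tested in R 4.3.3 with edgeR 4.0.16 (quasi-likelihood F test), with mouse as a block and Benjamini-Hochberg adjustment over 18958 genes (threshold, 0.05). SEs were derived from the F statistic. Log2 CPM used a prior count of 2. Ratios were compared by 2-sided exact sign-flip permutation over 9 mice (smallest p, 0.0039), and 95% intervals came from the spread of the 9 differences. Named by rule were the 10 genes, the listed genes and the 10 most alike over control eyes (Pearson r of log2 CPM with the mean of the 10). Scripts were tested on simulated data.

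Eyes were paired by the individual given in the labels. After removal of group means, the correlation between eyes of a mouse had a median of -0.00095 (range, -0.37 to 0.64). Over 72 pairs of libraries of the same group, chi-square divided by its degrees of freedom was at least 49.8. Alternatives were no block, RLE and upper-quartile scaling, DESeq2 1.42.0, limma 3.58.1 voom with sample weights, no filter, at least 10 counts in every library, a prior count of 0.5, an adjusted p of 0.01, and leaving out each mouse. As no molecular identifiers are described, depth speaks for counting error alone. No sample was left out. Of the 8 cone-to-rod ratios, which were adjusted together, 1 is not reported here.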

Additional observations from a re-analysis of the deposited data

Results flagged for a closer look

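Of 50 groups of libraries screened for a value far from the others, 4 held one, where chance flags about 1 in 20 groups (2.5 here). Best1-Nrf2 replicate 6 stood above the rest of its group in *Gnat2*, with a log2 CPM of 5.44 against 4.50 for the next eye, and in the mean log2 CPM of the 10 cone genes, at 4.52 against 2.56. Best1-Nrf2 replicate 2 had the lowest log2 ratio of *Arr3* to *Sag*, -2.03 against -0.59. Control replicate 3, the eye with the highest short-gene measure, had the highest log2 ratio of *Pde6h* to *Pde6g*, 3.47 against 2.25. The causes were not tested.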

How the results depend on the processing

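The count of cone genes called lower was 9, and 8 to 10 with a mouse left out, 8 without the replicate block, 8 with at least 10 counts in every library, 10 with DESeq2, 10 with voom and 7 at an adjusted p of 0.01. Their median log2 fold change stayed between -3.77 and -2.98 under all alternatives. Without the replicate block, *Gnat2*/*Gnb3* (-0.87), *Pde6h*/*Pde6c* (-2.43) and *Cngb3*/*Cnga3* (0.97) passed (exact permutation adjusted p = 0.0177 each), and *Gngt2* lost its call. The unpaired test changed no other call among the cone genes and ratios. With a prior count of 0.5, *Cngb3*/*Cnga3* (1.07, exact permutation adjusted p = 0.0469) passed. With a mouse left out, log2 differences ran from -0.2789 to 0.0808 for *Arr3*/*Opn1mw*, -0.13 to 0.17 for *Arr3*/*Sag*, 0.80 to 1.13 for *Cngb3*/*Cnga3*, 0.54 to 1.25 for *Gnat2*/*Gngt2* and -2.94 to -1.85 for *Pde6h*/*Pde6c*. The arrestin ratios changed sign there, without mouse 2 or 8 for *Arr3*/*Opn1mw* and without mouse 1, 4, 5, 7 or 8 for *Arr3*/*Sag*, and neither was called. The causes were not tested. Over all genes, 214 were lower, against 538 with DESeq2, 502 with voom, 366 without mice 6 and 8, 334 with the short-gene covariate and 116 to 320 with a mouse left out. *Cnga3* was not fitted with at least 10 counts in every library. Low counts limit *Cnga3* and most rod counterparts.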
